A study of Mus musculus with 19 samples.

Results

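The collagen chain genes of the mouse liver were taken as every protein-coding gene whose symbol is Col, a number, the letter a and a number. Of 35498 genes summed from the deposited quantifications, 44 met this rule. They were put into classes by textbook knowledge: 11 fibrillar chains, 9 fibril-associated chains with interrupted helices (FACIT), 6 basement membrane chains of type IV, 6 chains of type VI, 4 transmembrane chains, 3 short-chain network formers, 2 multiplexins, 1 anchoring fibril chain and 2 others. Bulk RNA was sequenced from livers of male mice of 1 strain, written C57Bl/J6 in the labels, which mark every sample with 24 weeks. The 19 libraries fall into 4 treatment groups. CTRL and CTRL+beta-Glucan have 5 libraries each, WSD also has 5, and 4 belong to WSD+beta-Glucan. The series title names oat beta-glucan, a soluble cereal fibre, given in the diet, and fatty liver disease. WSD and CTRL are not spelled out in the labels and are used here as group names. The labels do not tie a library to a mouse of its own, so every p-value given here rests on the spread among libraries, and that spread may be technical.

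Collagens are secreted proteins in which 3 chains wind into a triple helix. Fibrillar collagens of types I, III and V build the fibres that thicken in a scarred liver, type IV forms the sheet of basement membranes, and type VI forms beaded filaments between cells and fibres. In the liver, stellate cells and portal fibroblasts are known as the main source of fibrillar collagen, while hepatocytes are known for making type XVIII. The chains are hydroxylated and folded in the endoplasmic reticulum, exported, trimmed outside the cell and crosslinked, and matrix proteases remove them again.

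The regions around the start sites of 3 genes are shown because the results below turn on them: Col1a2 stands for the fibrillar chains with large differences, Col4a1 shares its start region with its partner Col4a2, and Col18a1 starts at 2 places. Each is a RefSeq window of 300 bases, 250 before and 50 after the start, on build GRCm38.p6. In the Col1a2 window (chr6:4505368-4505667, plus strand) and the Col18a1 windows capitals mark matches to the motifs searched below. In the Col4a1 window (chr8:11312777-11313076, minus strand) capitals mark the 78 bases that the windows of Col4a1 and Col4a2 share.
Col1a2: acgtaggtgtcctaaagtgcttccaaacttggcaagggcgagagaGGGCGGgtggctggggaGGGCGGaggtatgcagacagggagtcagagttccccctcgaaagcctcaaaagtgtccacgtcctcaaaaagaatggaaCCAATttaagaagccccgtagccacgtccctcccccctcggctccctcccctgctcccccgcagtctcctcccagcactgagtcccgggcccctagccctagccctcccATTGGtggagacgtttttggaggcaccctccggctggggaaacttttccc
Col4a1: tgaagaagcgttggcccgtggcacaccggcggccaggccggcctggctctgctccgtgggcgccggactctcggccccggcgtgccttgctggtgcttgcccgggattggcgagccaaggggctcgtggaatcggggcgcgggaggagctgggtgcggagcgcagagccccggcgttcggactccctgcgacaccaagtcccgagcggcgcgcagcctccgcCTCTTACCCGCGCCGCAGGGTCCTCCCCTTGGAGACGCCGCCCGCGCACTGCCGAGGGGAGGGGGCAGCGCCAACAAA
Col18a1, upstream start (chr10:77166481-77166780, minus strand): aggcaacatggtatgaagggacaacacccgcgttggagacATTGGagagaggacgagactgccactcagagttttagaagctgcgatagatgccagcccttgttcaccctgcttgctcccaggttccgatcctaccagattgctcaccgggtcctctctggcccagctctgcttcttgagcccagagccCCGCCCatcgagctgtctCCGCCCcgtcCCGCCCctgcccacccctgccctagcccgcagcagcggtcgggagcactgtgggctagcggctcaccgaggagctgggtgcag
Col18a1, downstream start (chr10:77113656-77113955, minus strand): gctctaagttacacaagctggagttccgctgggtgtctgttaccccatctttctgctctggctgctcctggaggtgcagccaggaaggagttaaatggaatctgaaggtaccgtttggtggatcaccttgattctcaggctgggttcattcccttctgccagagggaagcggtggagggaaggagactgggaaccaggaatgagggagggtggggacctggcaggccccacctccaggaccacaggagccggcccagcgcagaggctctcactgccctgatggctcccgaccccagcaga
The first exons of Col4a1 and Col4a2 lie on opposite strands and overlap by 22 bases, so the 2 genes start back to back within 1 short stretch. A window was found for 35 of the 44 collagen genes, 38 windows in all. Each motif was searched on both strands, and none of the motifs contains another. The sequence CCAAT, or ATTGG on the other strand, was in 13 of the 38 windows and in 37.4% of all 32851 mouse windows. TATAAA, or TTTATA, was in 5 of 38 and in 13.6% of all. GGGCGG, or CCGCCC, was in 23 of 38 (60.5%) and in 35.7% of all. The Col1a2 window held 2 matches to CCAAT and 2 to GGGCGG, the upstream Col18a1 window 3 to GGGCGG and 1 to CCAAT, and the downstream one held none of the 3. A match is a stretch of letters only, and no binding was measured.

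Levels of different genes are set side by side here as TPM (transcript abundance divided by effective length and scaled within the library), and libraries are compared as CPM (estimated reads scaled to library size after trimmed-mean, or TMM, normalisation). Of the 44 chains, 28 passed the low-count filter. The other 16 had at most 24 reads in any library, and 3 of them (Col2a1, Col10a1 and Col19a1) had none. Col18a1, a multiplexin of vascular and epithelial basement membranes whose cleaved end is endostatin, was the most abundant chain in all groups, at 277 ± 23.7 TPM in CTRL (SD, n = 5) and 313 ± 22 in WSD (n = 5). Next in CTRL came Col5a3 at 10.3 ± 2.44 TPM, Col14a1 at 5.77 ± 3.02 and Col4a1 at 4.20 ± 0.347, whose ranges over libraries overlapped in part. In WSD the second place went to Col3a1 at 58.1 ± 20.04 TPM, followed by Col14a1 at 36.0 ± 7.93, Col1a1 at 31.9 ± 13.7, Col4a1 at 30.0 ± 9.11 and Col1a2 at 25.6 ± 8.72. Within these last 4, each lay within 1 SD of its neighbour in the order. In CPM, Col18a1 made up 86.6 ± 2.22% of all collagen counts of CTRL libraries and 54.9 ± 7.98% of those of WSD libraries. With beta-glucan the share was 85.3 ± 3.23% on CTRL and 68.3 ± 7.23% on WSD (n = 4).

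Between 17238109 and 23432801 estimated reads per library were assigned to the annotated genes. The TMM factors were at most 0.896 in CTRL and at least 1.14 in WSD, so the choice of scaling matters in this comparison: with library totals alone the median log2 difference of all tested genes between WSD and CTRL moved from -0.04 to 0.43. CTRL 4 and WSD+beta-Glucan 2 stood apart in smooth muscle genes, whose summed level was 146 and 226 CPM there and at most 36.4 CPM in the other libraries. WSD+beta-Glucan 1 and CTRL+beta-Glucan 1 and 2 carry the title numbers 37, 39 and 40, below all others, so each count was also computed without them.

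WSD livers held more RNA of the type I and III chains, of Col5a1 and Col5a2, of Col4a1 and Col4a2, of Col6a1 to Col6a3 and of Col14a1 than CTRL livers. Across the 44 chains, 16 were called higher and 1 lower (edgeR quasi-likelihood test, adjusted p under 0.05), 11 were not called and 16 were not tested. Of all 13594 genes tested, 26% were called higher and 27.1% lower. With an effective-length offset 18 chains were called higher and 1 lower, and with library totals in place of TMM 21 and 0. The median log2 difference was 1.60 over the 28 tested chains and -0.04 over all genes. In 14 of the 28 tested chains each WSD library lay above each CTRL library, and the same held for 20% of all genes tested. These 14 were all among the 16 chains called higher, Col6a5 and Col23a1 being the exceptions. Summed over all chains but Col18a1, the level was 178 ± 33.2 CPM in CTRL and 753 ± 194 in WSD (SD, n = 5 each). By class, the sums, which were not tested and also hold chains that were not called, went from 95.7 ± 22.9 to 428 ± 116 CPM for fibrillar chains, from 32.8 ± 4.33 to 131 ± 32.5 for type IV, from 14.2 ± 3.57 to 85 ± 31.4 for type VI and from 22.8 ± 7.47 to 91.8 ± 16.8 for FACIT chains. Since these are whole-liver libraries, fewer or more cells of a type and less or more RNA per cell cannot be told apart.

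**Figure D1:**
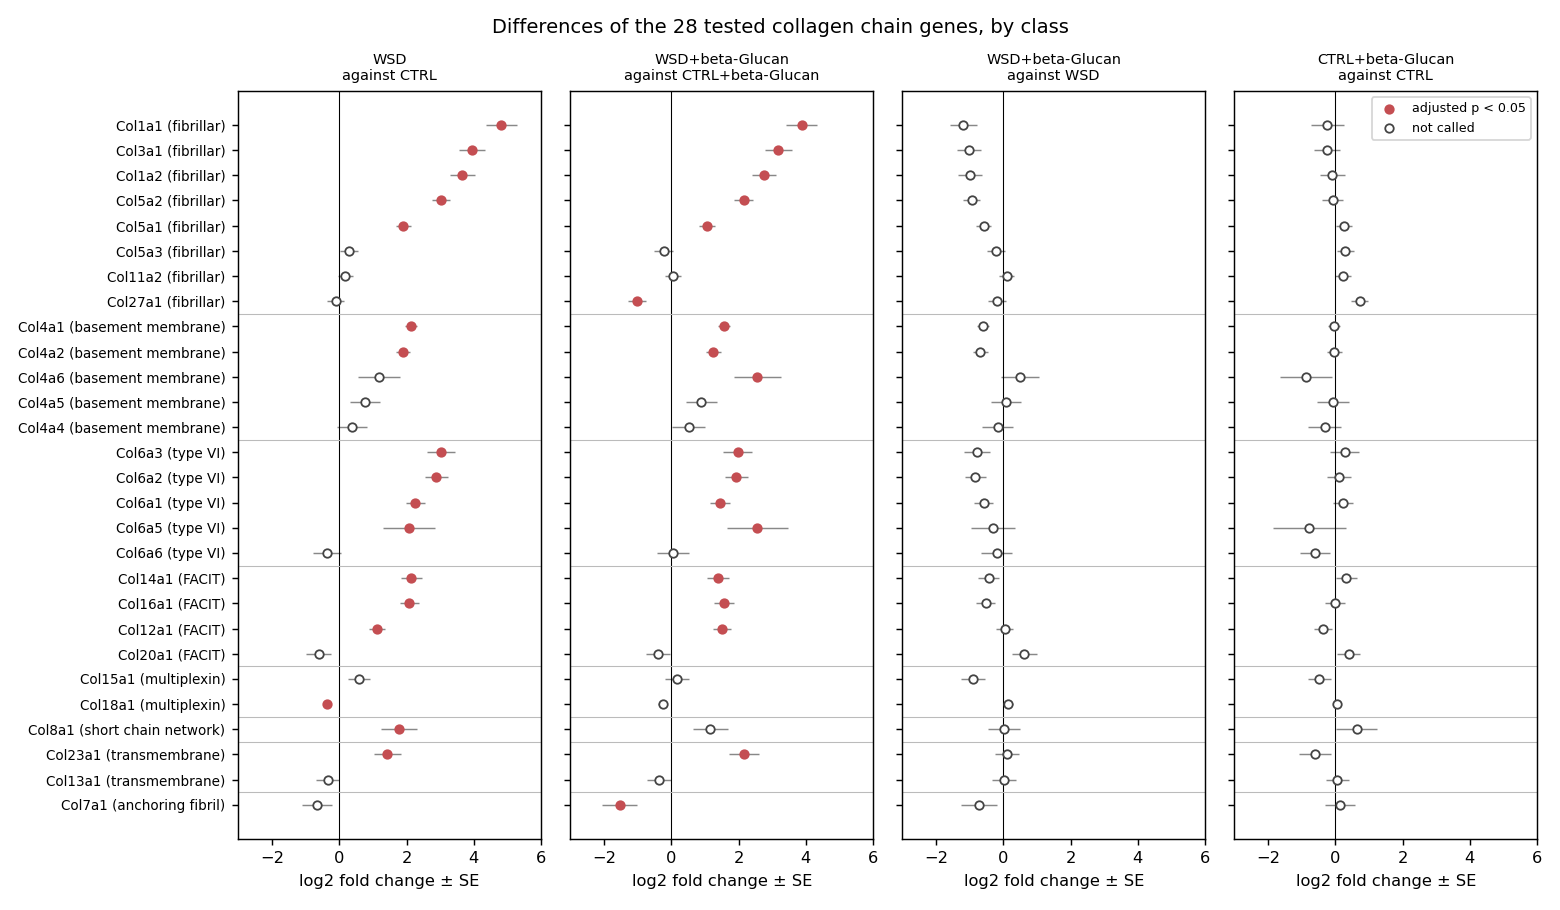
Log2 differences (log2 CPM scale) with standard errors for the 28 tested collagen chains in 4 comparisons, 1 panel each; filled red points have an edgeR adjusted p under 0.05, open points do not. Col1a1, Col1a2, Col3a1, Col5a1, Col5a2, Col4a1, Col4a2 and Col6a1 to Col6a3 lie right of 0 in both comparisons of WSD with CTRL, and no point is filled in either comparison with and without beta-glucan.

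Of the 11 fibrillar chains, 5 were called higher, none lower, 3 were not called and 3 were not tested. Col1a1, which gives 2 of the 3 chains of type I collagen, measured 3.09, 2.56, 3.67, 7.39 and 2.42 CPM in CTRL 1 to 5 and 139, 94.2, 77.4, 62.3 and 167 in WSD 1 to 5. The lowest WSD library, WSD 4, was several times above the highest control, CTRL 4. The log2 difference of Col1a1 was 4.82 ± 0.46 (SE), a 28.3-fold rise with an edgeR adjusted p of 2.58e-07. Col1a2, the partner chain, measured 8.21, 5.55, 7.87, 8.40 and 3.24 CPM in CTRL and 94.3, 85.0, 71.0, 50.04 and 118 in WSD. Both groups were far apart, and WSD 5 and WSD 1 were again the highest. The log2 difference of Col1a2 was 3.66 ± 0.37, a 12.6-fold rise (edgeR adjusted p = 3.88e-07). Col3a1, the chain of type III collagen, which shares fibres with type I, measured 9.79, 7.25, 7.05, 12.5 and 4.53 CPM in CTRL and 132, 143, 109, 73.1 and 175 in WSD. There too no CTRL library came near the WSD range, and the log2 difference was 3.94 ± 0.39 (edgeR adjusted p = 3.58e-07).

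Type V collagen sits inside type I fibres and limits their width. Col5a2 measured 1.80, 1.04, 1.34, 1.30 and 0.773 CPM in CTRL and 9.17, 12.2, 9.43, 6.50 and 13.3 in WSD, with no overlap. Its log2 difference was 3.02 ± 0.27, with an edgeR adjusted p of 2.63e-08. Col5a1 measured 5.85, 4.69, 5.66, 4.91 and 3.4 CPM in CTRL and 17.2, 21.6, 19.1, 11.7 and 22.2 in WSD, also without overlap, and its log2 difference was 1.91 ± 0.23. The remaining type V chain did not follow. Col5a3 measured 57.4, 60.1, 54.6, 56.0 and 33.7 CPM in CTRL and 72.3, 78.2, 66.4, 48.6 and 54.2 in WSD, and the groups overlapped. The difference of Col5a3 was 0.29 ± 0.26, not called (edgeR adjusted p = 0.366), though it was called higher with library totals in place of TMM. Col27a1, a fibrillar chain of cartilage that was well detected here, measured 20.02, 13.1, 15, 28.9 and 10.3 CPM in CTRL and 21.8, 14, 14.6, 11.9 and 18.7 in WSD. Its groups overlapped, with CTRL 4 the highest of all, and its log2 difference of -0.11 ± 0.26 was not called and changed sign without CTRL 4 (0.15) or with library totals alone (0.36). Col11a2 was not called either, at 0.18, and was called higher with library totals.

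**Figure D2:**
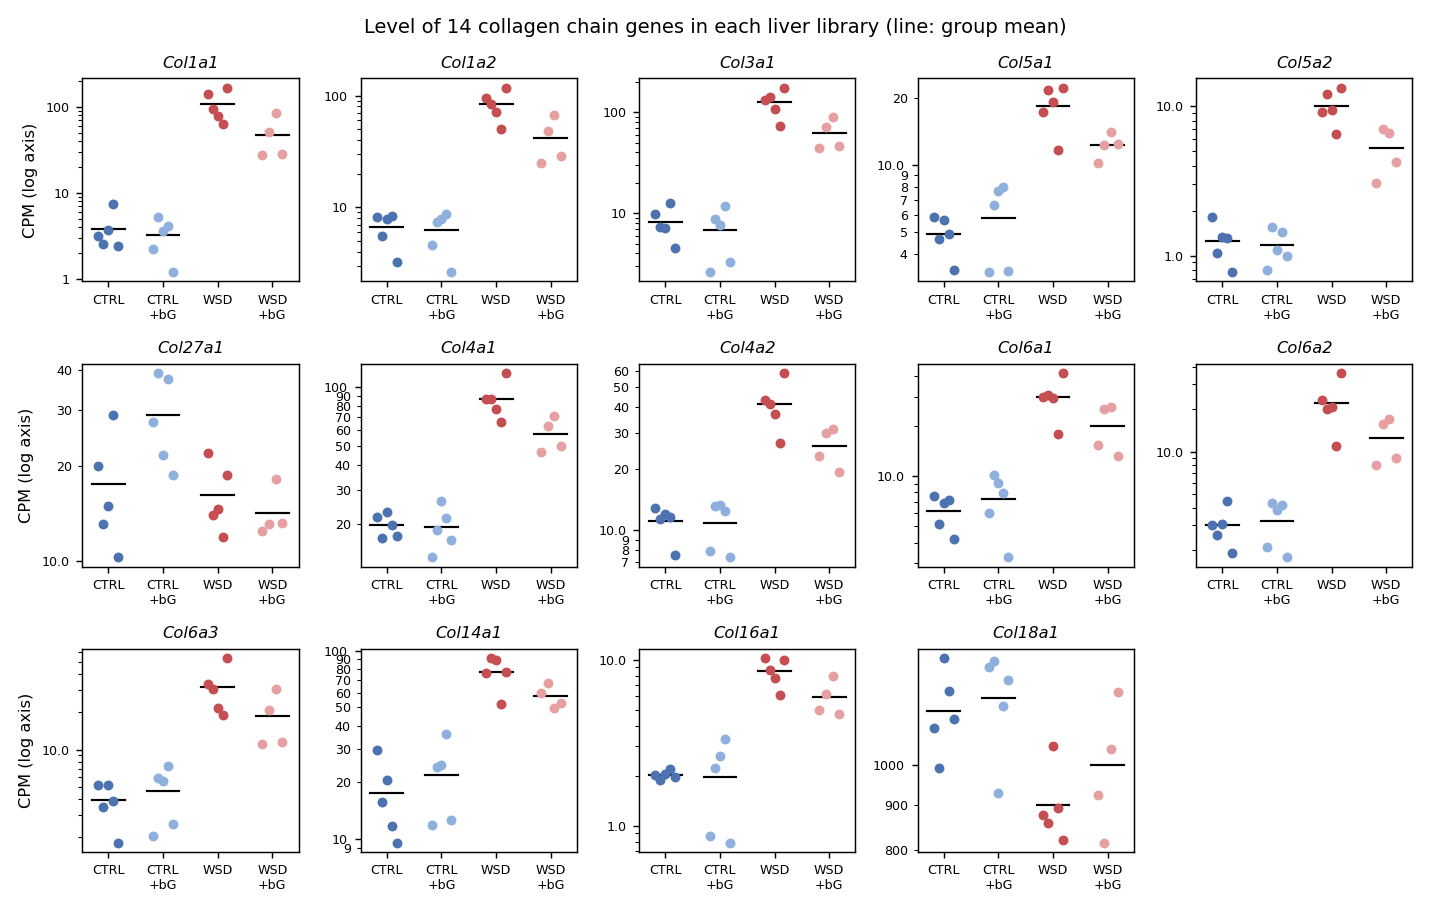
CPM (log axis) of 14 collagen chains in each of the 19 libraries, by group, with group means; the chains shown are those with a mean of at least 5 CPM in some group and a call in some comparison. WSD and WSD+beta-Glucan libraries lie above both CTRL groups for 12 of the chains, while Col18a1 and Col27a1 overlap between WSD and CTRL.

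In the basement membrane class, 2 of 6 chains were called higher, 3 were not called and 1 was not tested. Col4a1 and Col4a2, the pair with the shared start region printed above, form the common type IV network. Col4a1 measured 21.7, 17, 23.1, 19.8 and 17.5 CPM in CTRL and 86.5, 86.5, 77.1, 65.9 and 118 in WSD. Every WSD library was far above every CTRL library, with a log2 difference of 2.13 ± 0.18 and the smallest p of all chains (edgeR adjusted p = 1.46e-08). Col4a2 measured 12.9, 11.4, 12, 11.7 and 7.57 CPM in CTRL and 43.0, 41.4, 37.0, 26.6 and 58.7 in WSD. The order of the libraries was similar, WSD 5 highest and WSD 4 lowest, and the log2 difference was 1.90 ± 0.22 (edgeR adjusted p = 9.08e-07). The chains of restricted basement membranes differed by 0.37 (Col4a4), 0.76 (Col4a5) and 1.19 (Col4a6) and were not called, all at low counts. Col4a5 was called higher with an effective-length offset and with library totals, and Col4a6 with library totals.

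Type VI collagen is assembled from 1 chain each of Col6a1, Col6a2 and Col6a3, or with a related chain in place of Col6a3, and 4 of its 6 chains were called higher. Col6a1 measured 7.59, 5.18, 6.88, 7.16 and 4.22 CPM in CTRL and 29.7, 30.5, 29.3, 17.9 and 41.7 in WSD, and Col6a2 measured 3.04, 2.56, 3.09, 4.44 and 1.91 in CTRL and 23, 20.1, 20.6, 10.9 and 36.1 in WSD. Neither pair of groups overlapped. The log2 difference was 2.27 ± 0.29 for Col6a1 (edgeR adjusted p = 4.29e-06) and 2.89 ± 0.34 for Col6a2. Col6a3 measured 5.17, 3.47, 5.25, 3.90 and 1.80 CPM in CTRL and 33.6, 30.4, 21.5, 18.9 and 54.2 in WSD, and its log2 difference of 3.02 ± 0.42 was the largest of the class. Col6a5, a rare alternative to Col6a3, differed by 2.08 ± 0.77 (edgeR adjusted p = 0.0289) from 9 reads in all CTRL libraries together, with overlapping groups, and kept its call in 20 of 28 alternatives. Col6a6 was not called (-0.36) and Col6a4 was not tested.

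FACIT collagens decorate the surface of fibres. Of the 9 chains, 3 were called higher, 1 was not called and 5 were not tested. Col14a1, the most abundant of them, measured 29.7, 15.8, 20.6, 11.7 and 9.58 CPM in CTRL and 76.0, 91.7, 89.9, 52.5 and 76.8 in WSD. The groups did not overlap, and its spread within CTRL was wide, CTRL 1 being the highest and CTRL 5 the lowest (log2 difference 2.15 ± 0.31, edgeR adjusted p = 2.32e-05). Col16a1 measured 2.02, 1.89, 2.04, 2.19 and 1.96 CPM in CTRL, nearly flat, and 10.2, 8.71, 7.70, 6.13 and 9.92 in WSD. Its log2 difference was 2.08 ± 0.28 (edgeR adjusted p = 5.47e-06). Col12a1, a chain of dense connective tissue, measured 1.69, 1.22, 2.10, 3.08 and 2.42 CPM in CTRL and 5.07, 4.13, 4.15, 4.17 and 5.37 in WSD, a smaller and still separate pair of ranges. It was called higher by 1.12 ± 0.25. Col20a1 was not called (-0.61).

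Among the remaining classes, Col8a1, a short-chain network former of vessel walls, measured 0.0562, 0.0609, 0.292, 0.177 and 0.103 CPM in CTRL and 0.323, 0.454, 0.389, 0.549 and 0.691 in WSD. WSD 1 was just above CTRL 3, and the log2 difference was 1.77 ± 0.54. The transmembrane chain Col23a1 measured 0.225, 0.366, 0.233, 0.355 and 0.155 CPM in CTRL and 0.876, 0.248, 1.04, 0.641 and 0.813 in WSD, where WSD 2 fell among the controls, and it differed by 1.43 ± 0.39. Both were called higher in the fit of all 4 groups and lost their call when WSD and CTRL alone were fitted, where 13 chains in place of 16 were called. Apart from Col6a5, Col8a1 and Col23a1, the remaining 13 of the 16 chains kept their call in all 28 alternatives run. The transmembrane chain Col13a1 (-0.34), the anchoring fibril chain Col7a1 (-0.66) and the multiplexin Col15a1 (0.59) were not called. Col15a1, a chain of vessel and muscle basement membranes, measured 3.88, 5.91, 13.2, 8.81 and 11.1 CPM in CTRL and 13.5, 11.9, 8.65, 6.91 and 23.8 in WSD. Its groups overlapped widely, with WSD 5 and WSD 1 above all controls, and it was called higher with an effective-length offset or with library totals alone.

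Col18a1 was the single chain called lower. It measured 1102, 992, 1322, 1214 and 1128 CPM in CTRL and 875, 857, 1049, 894 and 822 in WSD. The highest WSD library, WSD 3, lay above CTRL 2, so the groups overlapped, and the log2 difference was -0.36 ± 0.12 (edgeR adjusted p = 0.0166). This call rests on the scaling: with library totals alone the difference was 0.11 ± 0.11 (edgeR adjusted p = 0.386), and in TPM the WSD mean was above the CTRL mean. Col18a1 lay below the median of all genes under both scalings (-0.36 against -0.04, and 0.11 against 0.43).

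**Figure D3:**
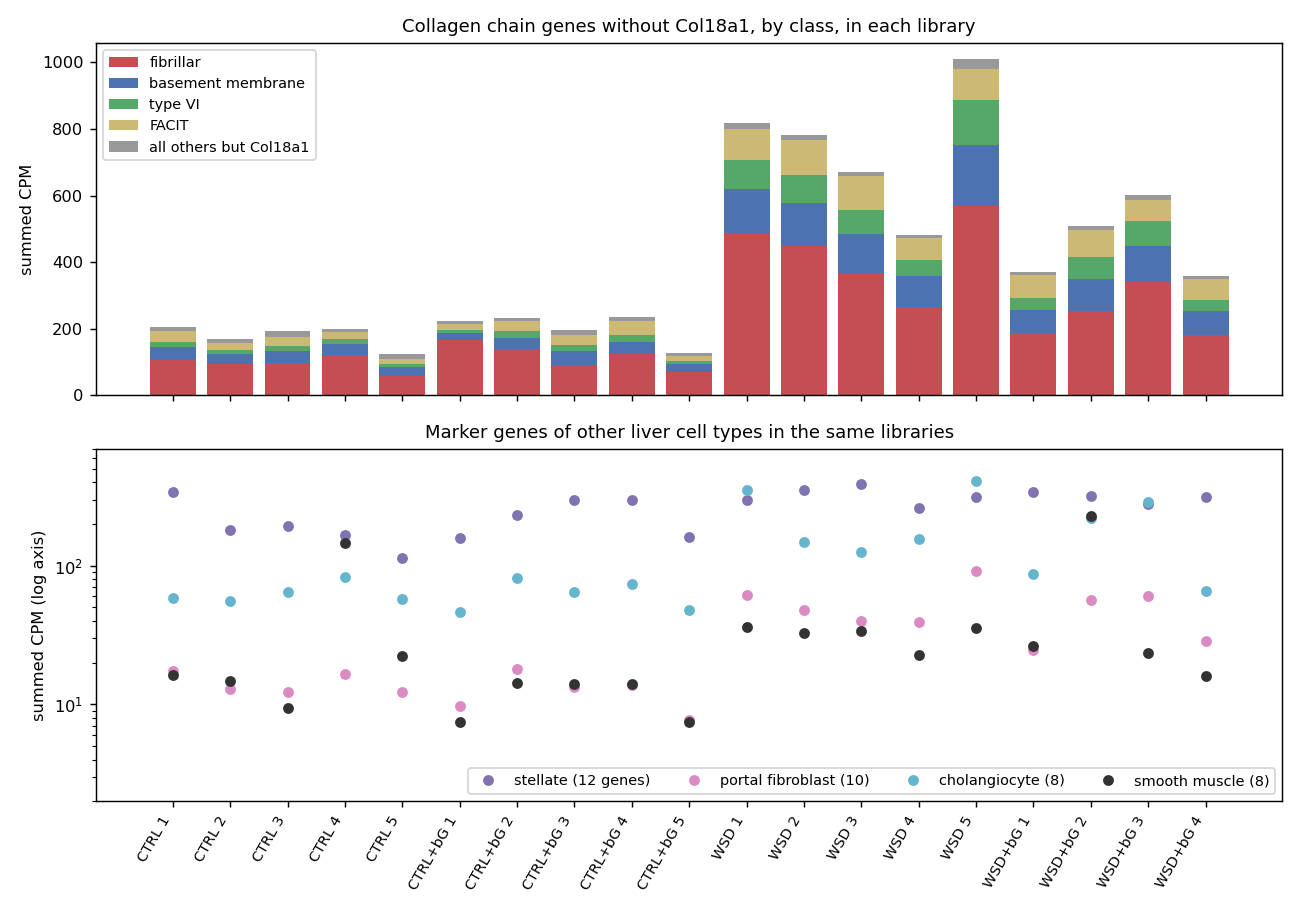
Upper panel: summed CPM of the collagen chains by class in each library, Col18a1 left out. Lower panel: summed CPM (log axis) of marker genes of stellate cells, portal fibroblasts, cholangiocytes and smooth muscle in the same libraries. The WSD sums run from 483 to 1009 CPM and the CTRL sums from 125 to 206, and smooth muscle genes stand out in CTRL 4 and WSD+beta-Glucan 2.

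Some libraries were often at 1 end of their group across chains, more so in WSD than in the other groups. Among the 16 chains called higher, WSD 5 was the highest WSD library in 13 and WSD 4 the lowest in 13. CTRL 5 was the lowest CTRL library in 11 of 16, while the highest was CTRL 4 in 7, CTRL 1 in 5, CTRL 3 in 3 and CTRL 2 in 1. In CTRL+beta-Glucan, replicates 1 and 5 were the lowest in 7 each, and the highest was replicate 2 in 7 and replicate 4 in 6. In WSD+beta-Glucan, replicate 3 was the highest in 10 and the lowest in 3, and replicate 1 was the lowest in 9. The order over all genes is not given here.

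Markers of liver cell types were counted in the same comparison, in which 26% of all genes were called higher and 27.1% lower. Of 12 stellate cell genes 7 were called higher, and their summed level was 114 to 342 CPM in CTRL and 262 to 389 in WSD, so the ranges overlapped. Of 10 portal fibroblast genes 7 were called higher, with sums of 12.3 to 17.3 CPM in CTRL and 39.1 to 92.1 in WSD. Of 8 cholangiocyte genes 3 were called higher, with sums of 55.7 to 83.5 CPM in CTRL and 126 to 409 in WSD. WSD 5 and WSD 1, the highest of the WSD libraries in Col1a1, were also the highest in these genes, at 409 and 351 CPM. Endothelial genes were called higher in 10 of 12, macrophage genes in 8 of 8, and hepatocyte genes were called lower in 6 of 8 (99716 to 135349 CPM in CTRL, 49086 to 60285 in WSD). Of 8 smooth muscle genes 1, Smtn, was called higher, and 3 were without CTRL 4 and WSD+beta-Glucan 2. Of 6 mesothelial genes 1, Wt1, was called higher (1.90 ± 0.53), with sums of 2.68 to 14.4 CPM in CTRL and 3.89 to 10.7 in WSD. Of 5 adipose genes the 1 tested, Cfd, was called higher (4.44 ± 0.61), with sums of 0.155 to 3.6 CPM in CTRL and 14.8 to 62.3 in WSD. Of the genes that were tested, 7 of 9 portal fibroblast, 1 of 6 smooth muscle, 1 of 4 mesothelial and 3 of 7 cholangiocyte genes were called higher, beside 26% of all genes. The part of these cell types in the collagen differences was not tested. No defining marker of these liver cell types was at 0 in all libraries, while Myh4 of skeletal muscle and Prss1 of exocrine pancreas were.

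With beta-glucan added to WSD, no collagen chain was called in either direction. The summed levels of the fibrillar, type IV and type VI classes lay between those of CTRL and WSD. Not every chain did so: of these groups, WSD+beta-Glucan had the highest mean of Col4a6 (0.819 CPM) and the lowest of Col27a1 (14.2 CPM). Summed over all chains but Col18a1, the levels were 460 ± 117 CPM in WSD+beta-Glucan (SD, n = 4), 753 ± 194 in WSD (n = 5) and 178 ± 33.2 in CTRL. The class sums were 240.3 ± 74.4 CPM for fibrillar chains, 86.9 ± 18.5 for type IV, 52 ± 20.5 for type VI and 69.7 ± 8.99 for FACIT chains. The count of 0 comes from the edgeR test at an adjusted p under 0.05, by which 0.302% of all genes were called lower and 0.0883% higher. At an unadjusted p under 0.05, 9 chains were lower and 0 higher, where 7.89% and 7.69% of all genes were. DESeq2 called 2 chains lower, Col4a1 (-0.61, DESeq2 adjusted p = 0.0379) and Col5a2 (-0.97, DESeq2 adjusted p = 0.0179). The median log2 difference was -0.36 over the 28 tested chains and 0.01 over all genes, and 19 of the 28 lay below 0 (47.6% of all genes did). This comparison shares its WSD libraries with the one above.

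For Col1a1 the 4 WSD+beta-Glucan libraries measured 27.2, 50.2, 84.4 and 28.3 CPM. Replicates 1, 2 and 4 were below the lowest WSD library (62.3 CPM) and replicate 3 was inside the WSD range. The log2 difference from WSD was -1.18 ± 0.40, with an edgeR adjusted p of 0.181. Col1a2 measured 25.0, 48.0, 66.6 and 28.8 CPM and Col3a1 43.7, 70.8, 89.6 and 45.9, in both of which replicates 1, 2 and 4 were again below all WSD libraries. Their log2 differences were -0.99 ± 0.34 (edgeR adjusted p = 0.186) and -1.01 ± 0.36 (edgeR adjusted p = 0.197).

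Col5a2 had the smallest p of the chains, at 3.07, 7.01, 6.66 and 4.25 CPM and a log2 difference of -0.94 ± 0.25 (edgeR adjusted p = 0.0880). Replicates 2 and 3 were inside the WSD range. With library totals in place of TMM, Col5a2 was called lower (edgeR adjusted p = 0.0410). Col5a1 measured 10.2, 12.2, 14.1 and 12.4 CPM, of which 1 library was below the WSD range.

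Col4a1 measured 46.5, 63.0, 71.2 and 50.1 CPM and Col4a2 23.2, 30.0, 31.1 and 19.2. For Col4a1 3 of 4 libraries were below the lowest WSD value of 65.9 CPM, and for Col4a2 2 of 4 were below 26.6 CPM. The log2 differences were -0.59 ± 0.18 (edgeR adjusted p = 0.129) and -0.68 ± 0.22 (edgeR adjusted p = 0.145).

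In type VI, the values were 15.4, 25.2, 26.2 and 13.2 CPM for Col6a1, 8.01, 15.6, 17.1 and 9.05 for Col6a2 and 11, 20.9, 30.8 and 11.5 for Col6a3. Replicates 1 and 4 were below, and replicates 2 and 3 inside, the WSD range of each chain. The log2 differences ran from -0.83 for Col6a2 to -0.58 for Col6a1. Col14a1, the FACIT chain, measured 59.9, 67.6, 49.8 and 52.8 CPM and Col16a1 4.94, 6.24, 7.92 and 4.67, and both overlapped WSD, at log2 differences of -0.43 ± 0.32 and -0.52 ± 0.27. Col18a1 measured 924, 815, 1043 and 1209 CPM and Col27a1 12.5, 13.1, 18.2 and 13.2, within or around the WSD values. Of the markers, portal fibroblast sums were 24.6 to 60.6 CPM and cholangiocyte sums 65.4 to 286 CPM in WSD+beta-Glucan, highest in replicates 2 and 3 in both lists. Stellate cell sums were 279 to 342 CPM, highest in replicate 1 and within the WSD range of 262 to 389. Mesothelial sums were 54.9 CPM in replicate 2, the library high in smooth muscle genes, and 7.33 to 9.95 in the other 3, against 3.89 to 10.7 in WSD. Adipose sums were 21.9 to 68.1 CPM. Of 8 macrophage genes 2, Trem2 and Gpnmb, were called lower than in WSD, and 0 were without CTRL 4 and WSD+beta-Glucan 2. Whether these cell types bear on the collagen values was not tested.

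With beta-glucan added to CTRL, the collagen chains stayed without a call, and the groups overlapped in every named chain. By edgeR at an adjusted p under 0.05, 0 of the 28 tested chains and 0.00736% of all genes were called. At an unadjusted p under 0.05, 1 chain, Col27a1, was higher and none lower, where 2.86% and 2.84% of all genes were. DESeq2 called 0 chains. The median log2 difference of the tested chains was -0.02, and 0.00 for all genes. Col27a1 measured 27.5, 39.2, 21.6, 37.3 and 18.6 CPM in CTRL+beta-Glucan. Replicates 2 and 4 were above every CTRL library, and the log2 difference was 0.73 ± 0.26 (edgeR adjusted p = 0.851).

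The fibrillar chains of type I and III lay near or below the CTRL values. Col1a1 measured 2.24, 5.15, 3.6, 4.08 and 1.19 CPM in CTRL+beta-Glucan 1 to 5, Col1a2 4.62, 7.32, 7.81, 8.76 and 2.62 and Col3a1 2.60, 8.69, 7.63, 11.7 and 3.31. Replicates 1 and 5 were the lowest in each. Col5a1 measured 3.32, 6.64, 7.69, 7.98 and 3.36 CPM and Col5a2 0.794, 1.55, 1.08, 1.44 and 0.989, both around the CTRL values. For Col5a3 replicate 1 stood at 122 CPM, above all other libraries, and the rest between 38.1 and 68.5.

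The other classes were likewise near CTRL. Col4a1 measured 13.6, 18.6, 26.1, 21.6 and 16.6 CPM and Col4a2 7.94, 13.1, 13.3, 12.4 and 7.37. Col6a1 measured 5.99, 10.2, 9.07, 7.98 and 3.26 CPM, Col6a2 2.09, 4.34, 3.84, 4.17 and 1.78 and Col6a3 2.02, 5.90, 5.59, 7.42 and 2.52. For all 5 chains the values lay on both sides of the CTRL mean. Col14a1 measured 11.9, 24.3, 24.6, 36.0 and 12.6 CPM, Col16a1 0.866, 2.23, 2.64, 3.34 and 0.791 and Col18a1 1291, 1312, 929, 1164 and 1249. Log2 differences from CTRL ran from -0.02 for Col16a1 to 0.33 for Col14a1 among these 3.

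Among libraries with beta-glucan, WSD again had higher collagen levels. WSD+beta-Glucan against CTRL+beta-Glucan gave 16 chains called higher and 2 lower of the 28 tested (edgeR adjusted p under 0.05), where 19.1% and 15.2% of all genes were called. Of the 16, 15 were among the 16 called in WSD against CTRL (15 of 16 of each list). These comparisons share no library, but both come from the fit of all 19 libraries, with 1 estimate of spread per gene. The share of all genes called higher in both is not given here. Col8a1 was not called among the libraries with beta-glucan (1.16, edgeR adjusted p = 0.0930), and Col4a6 was called there in addition (2.56 ± 0.69). The largest log2 differences were 3.87 ± 0.46 for Col1a1, 3.19 ± 0.39 for Col3a1 and 2.75 ± 0.37 for Col1a2, and Col4a1 differed by 1.58 ± 0.18 (edgeR adjusted p = 3.71e-06). In 13 of the 16 chains chosen on WSD against CTRL the log2 difference was smaller here. The difference itself, tested as the interaction of WSD and beta-glucan in edgeR, was called for 0 of the 28 tested chains, where 0.00736% of all genes were. At an unadjusted p under 0.05, 4 chains were lower (Col5a1, Col27a1, Col4a1 and Col5a2) and none higher, where 6.82% and 6.9% of all genes were, and DESeq2 called 0.

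The 2 chains called lower with WSD in the presence of beta-glucan were Col27a1 and Col7a1. Col27a1 lay between 12.5 and 18.2 CPM in WSD+beta-Glucan and between 18.6 and 39.2 in CTRL+beta-Glucan, just without overlap. Its log2 difference of -1.02 ± 0.28 (edgeR adjusted p = 0.00950) was no longer called without the 3 libraries of low title number (-0.80, edgeR adjusted p = 0.108) or with library totals alone (-0.71, edgeR adjusted p = 0.0697). Col7a1, which anchors epithelia and had at most 25 reads in any library, differed by -1.52 ± 0.52 with overlapping groups (edgeR adjusted p = 0.0287) and kept its call in 19 of 28 alternatives. Against CTRL, WSD+beta-Glucan had 16 of the 28 tested chains called higher and 1 lower (Col7a1, called in 13 of 28 alternatives), where 20.8% and 17.5% of all genes were called. That comparison shares libraries with the others. Without CTRL 4 and WSD+beta-Glucan 2, the libraries with high smooth muscle genes, 16 chains were called higher in WSD against CTRL and 15 among the libraries with beta-glucan. Of 8 smooth muscle genes, 6 were called higher in WSD+beta-Glucan against the CTRL libraries with beta-glucan, and 3 without these 2 libraries. Their part in the collagen values was not tested.

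Ratios between chains were compared next, and no ratio passed 0.05 after adjustment. Most pair chains of 1 molecule, while Col3a1 to Col1a1 and Col1a1 to Col4a1 set chains of different collagens side by side. The ratio of Col1a1 to Col1a2 in TPM, 2 in a type I heterotrimer at the protein level, was 0.372, 0.388, 0.443, 0.846 and 0.743 in CTRL and 1.43, 1.07, 1.05, 1.23 and 1.37 in WSD. Each WSD library was above each CTRL library, though CTRL 4 and CTRL 5 were apart from the other 3 controls. The log2 ratio rose by 1.21 (exact permutation test, two-sided p = 0.00794, the smallest that 5 against 5 allows; adjusted p = 0.0556 over 28 tests). Col6a3 to Col6a1 was 0.592, 0.595, 0.648, 0.728 and 0.188 in CTRL and 1.47, 0.9997, 0.752, 1.32 and 2.05 in WSD, a log2 difference of 1.32 without overlap. Col6a1 to Col6a2 went the other way, 1.98 ± 0.309 in CTRL and 1.29 ± 0.178 in WSD (SD, n = 5), a log2 difference of -0.61 without overlap. The fibrillar chain Col1a1 against the basement membrane chain Col4a1 was 0.190 ± 0.0999 in CTRL and 1.04 ± 0.234 in WSD, a log2 difference of 2.55 without overlap. These 3 had the same exact permutation p of 0.00794 and adjusted p of 0.0556. In CPM in place of TPM, Col6a3 to Col6a1 overlapped, with WSD 3 at 0.732 and CTRL 3 at 0.763. So did Col6a1 to Col6a2 in CPM, with WSD 4 at 1.65 and CTRL 4 at 1.61, while Col1a1 to Col4a1 stayed apart.

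In WSD+beta-Glucan, Col1a1 to Col1a2 was 1.06, 1.06, 1.23 and 0.928 and Col1a1 to Col4a1 was 0.448, 0.720, 1.03 and 0.424. The first overlapped WSD broadly, and for the second replicates 1, 2 and 4 were below WSD (exact permutation p = 0.0794, adjusted p = 0.202). Against CTRL+beta-Glucan, 3 ratios did not overlap (Col1a1 to Col1a2, Col6a1 to Col6a2 and Col1a1 to Col4a1), each with the smallest exact permutation p that 4 against 5 allows (0.0159, adjusted p = 0.0635). Col4a1 to Col4a2, the pair with 1 start region, was 2.25 ± 0.577 in CTRL and 2.96 ± 0.340 in WSD and overlapped (exact permutation p = 0.0397, adjusted p = 0.123). Col3a1 to Col1a1 was 3.46 ± 1.96 in CTRL and 1.88 ± 0.229 in WSD, also with overlap (exact permutation p = 0.0794, adjusted p = 0.202). In CPM, Col3a1 to Col1a1 did not overlap, at 2.30 ± 0.656 in CTRL and 1.22 ± 0.237 in WSD. Among libraries with beta-glucan, Col6a1 to Col6a2 overlapped in CPM, with WSD+beta-Glucan 1 at 1.92 and CTRL+beta-Glucan 5 at 1.83.

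**Figure D4:**
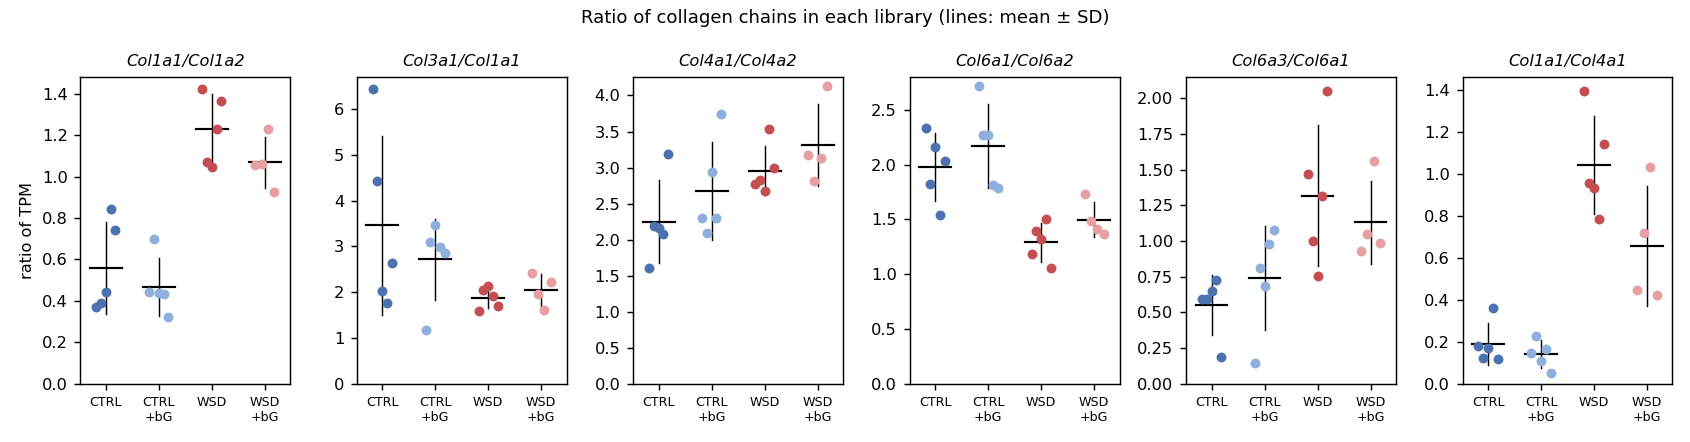
Ratios of TPM between pairs of collagen chains in each library by group, with mean and SD. Col1a1 to Col1a2, Col6a3 to Col6a1 and Col1a1 to Col4a1 lie higher, and Col6a1 to Col6a2 lower, in each WSD library than in each CTRL library.

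Col18a1 is read from 2 start sites, whose windows are printed above. The annotation on chromosome 10 of GRCm38 gives, beside 2 short ones, 1 transcript from the upstream start (77052178 to 77166548) and 2 from the downstream start (77053194 to 77113946 and 77053016 to 77113705). They share 4044 bases, so reads were divided between them by Salmon's estimate, and 838 of the bases found in the upstream transcript alone lie at its 3′ end rather than near a start. The upstream transcript was estimated at 622, 619, 593, 573 and 525 CPM in CTRL and 646, 487, 609, 585 and 552 in WSD. In CPM the CTRL values all lay inside the WSD range. In TPM, the unit of the share below, the upstream transcript did not overlap. It was at 108 to 144 TPM in CTRL and 161 to 189 in WSD. The downstream transcripts were estimated at 467, 364, 719, 629 and 599 CPM in CTRL and 213, 362, 429, 298 and 262 in WSD, the lower values being mostly in WSD. In TPM they were at 126 ± 26.5 in CTRL and 101 ± 28.3 in WSD, with overlap. The downstream share of the Col18a1 TPM was 45.5 ± 7.98% in CTRL and 32.2 ± 7.41% in WSD (SD, n = 5 each). With beta-glucan it was 34.7 ± 12.4% on CTRL (n = 5) and 34.7 ± 9.40% on WSD (n = 4). The difference of -13.3 percentage points between WSD and CTRL had an exact permutation p of 0.0397 (adjusted p = 0.123), and the groups overlapped.

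**Figure D5:**
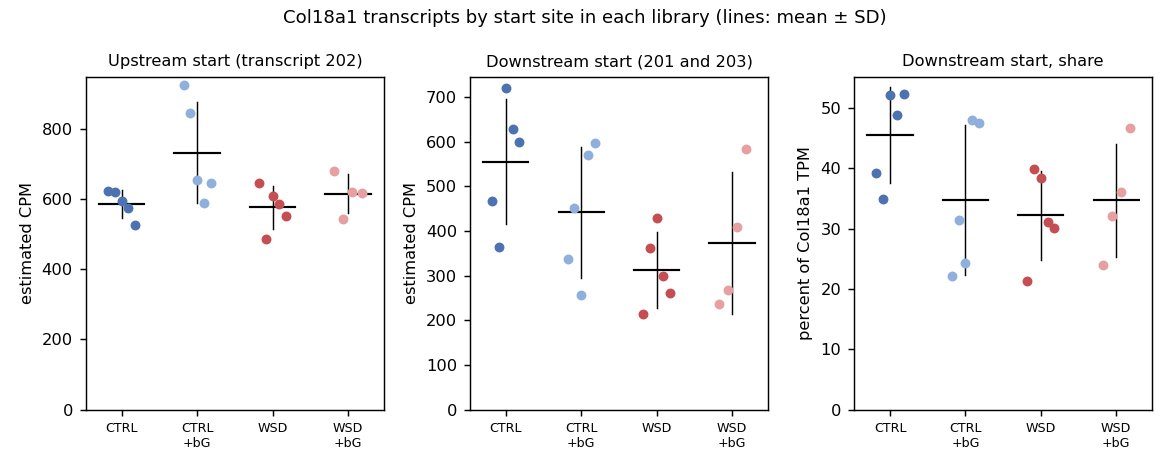
Estimated CPM of Col18a1 transcripts from the upstream start (left), from the downstream start (middle) and the share of the downstream start in the gene's TPM (right, percent) in each library by group. The upstream values of WSD (487 to 646 CPM) lie within the spread of CTRL (525 to 622 CPM) or just beyond it, and the downstream share is widely spread within each group. In TPM, not drawn for the upstream start, WSD was at 161 to 189 and CTRL at 108 to 144.

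Genes that make, trim, crosslink, bind and degrade collagen were counted in the same way, and each count stands against the 26% of all genes called higher and 27.1% called lower in WSD. Those shares are of tested genes, and some listed genes were not tested. Tested were 9 of 10 prolyl hydroxylation, 5 of 6 lysyl, 5 of 8 propeptide, 9 of 11 receptor and 8 of 9 collagenase and gelatinase genes. The other lists were tested in full. Of 10 prolyl hydroxylation genes, 4 were called higher and 2 lower in WSD. The higher ones included P3h3 (log2 difference 1.75 ± 0.19), of the enzymes that modify single prolines, and Crtap (1.40 ± 0.20), a partner protein of such enzymes. P4ha1 (0.62 ± 0.17), a subunit of the main prolyl hydroxylase, was also among them. P3h1, a further enzyme that modifies single prolines, and P4hb, the other subunit of the main hydroxylase, were called lower (-0.34 and -0.29). Of 6 lysyl hydroxylation and glycosylation genes 2 were called higher, Fkbp10 (2.14 ± 0.33) and Plod2 (1.85 ± 0.37). Serpinh1, the collagen chaperone HSP47, rose from 3.89 ± 1.03 CPM in CTRL to 25.7 ± 10.01 in WSD (log2 difference 2.73 ± 0.27, edgeR adjusted p = 2.39e-07). Kdelr3, a retrieval receptor, was also called higher, by a log2 difference of 2.94, from 8 reads in all CTRL libraries together. The export factors Mia3 (-0.91 ± 0.11) and Mia2 (-0.39) were called lower. With library totals in place of TMM, P3h1 (0.13), P4hb (0.18) and Mia2 (0.07) changed sign and were not called. With an effective-length offset the calls of P3h1 (edgeR adjusted p = 0.337) and P4hb (edgeR adjusted p = 0.122) were also lost.

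Outside the cell, 4 of 8 propeptide-removing genes were called higher, among them Adamts2 (2.70 ± 0.32) and Adamts14 (2.14 ± 0.32), which remove N-terminal propeptides, and Bmp1, which removes C-terminal ones, was called lower (-0.85 ± 0.11). Of 6 crosslinking genes 5 were called higher. Those with the smallest p were Tgm2 (1.37 ± 0.11), Loxl2 (1.80 ± 0.22) and Loxl3 (1.74 ± 0.27), and Loxl1 (2.71) and Lox, from 7 reads in all CTRL libraries, were the other two. Of 11 genes of fibril-associated and basement membrane proteins 8 were called higher, by the smallest p Sparc (2.22 ± 0.24), Nid1 (2.63 ± 0.31) and Postn (2.21 ± 0.28), and 2 lower, Fn1 (-0.83 ± 0.13), which hepatocytes also secrete, and Nid2 (-0.68 ± 0.19). Of 11 collagen receptor genes 6 were called higher and 1, the integrin chain Itga10, lower (-0.72 ± 0.20). Itga10 and Nid2 kept their sign and lost their call with library totals and with an effective-length offset (edgeR adjusted p = 0.0560 and 0.255 with the offset). The smallest p among the receptors were those of Lair1 (2.87 ± 0.37), an inhibitory receptor of leukocytes, Mrc2 (2.74 ± 0.36), which takes up collagen fragments, and Ddr2 (1.44 ± 0.28), a fibrillar collagen kinase.

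Of 9 collagenase and gelatinase genes 5 were called higher and 1, the prolyl peptidase Prep, lower (-0.48 ± 0.07), a difference that was -0.02 and not called with library totals. Mmp13, the main interstitial collagenase of rodents, had 3 reads in all CTRL libraries and a mean of 3.84 ± 0.901 CPM in WSD. In WSD+beta-Glucan Mmp13 had 1.27 ± 0.287 CPM, and it was the single gene of the pathway lists called between WSD+beta-Glucan and WSD (log2 difference -1.60 ± 0.33, edgeR adjusted p = 0.0364). Without CTRL 4 and WSD+beta-Glucan 2, the libraries with high smooth muscle genes, Mmp13 lost this call. Ctsb, a lysosomal protease, was higher in WSD by 0.98 ± 0.10. All 3 inhibitor genes were called higher: Timp1, with 5 reads in all CTRL libraries, had 6.37 ± 2.54 CPM in WSD, Timp3 differed by 1.09 ± 0.26, and Timp2 went from 8.84 ± 1.13 to 25 ± 7.32 CPM. Timp1 in WSD+beta-Glucan was 2.29 ± 1.02 CPM, not called against WSD (edgeR adjusted p = 0.101). Of 13 genes of TGF beta and PDGF signalling, which drive fibroblasts to make collagen, 9 were called higher, among them Tgfb1 (1.82 ± 0.18), Pdgfb (2.61 ± 0.29) and its receptor Pdgfrb (2.14 ± 0.30).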

How the data were processed

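Liver RNA of 19 libraries was measured by stranded mRNA sequencing (TruSeq, per the labels). Per the submitters' processing notes, Salmon 1.10.1 and genome build GRCm39 were used, and DESeq2 1.38.3 is named with no role. The transcript set is not given in the sources used here. The authors deposited, for each transcript of a library, an estimated count (not scaled between libraries), a TPM value (corrected for effective length and summing to the same total in each library), and the effective length in bases, another unit. Nothing in the labels' protocols says how these values were filtered.

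Of 116546 transcripts listed, 115977 (99.51%) were matched by identifier to GENCODE M21, an annotation of GRCm38, and summed to 35498 genes; 0.0623% to 0.11% of a library's estimated counts were unmatched. Since this build differs from that of the authors, coordinates and sequences come from the annotation and from RefSeq windows on GRCm38.p6. Summed estimated counts were rounded and tested with edgeR 4.0.16 (R 4.3.3): filterByExpr, TMM, a robust quasi-likelihood fit of all 19 libraries with 1 mean per group, and Benjamini-Hochberg adjustment over 13594 genes. Library depth was 17238109 to 23432801 estimated counts (median 19460041). TPM values entered levels and chain ratios, which were compared by exact two-sided permutation tests on log2 ratios, adjusted over 28 tests. Errors after ± are SD for levels and ratios and SE for log2 differences. Groups came from the labels.

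On simulated counts for WSD against CTRL (13594 genes), 43.3% of 67 genes changed 1.5-fold, 82.1% of 67 changed 2-fold and 100% of 66 changed 4-fold were called, and 0.0747% of the 13394 unchanged genes were. In the data 26% of genes were called higher and 27.1% lower, far more than were changed in the simulation. The simulation therefore could not test the choice of scaling or give the error rate of the real comparison. Alternatives were RLE scaling, no filter, DESeq2 1.42.0, the compared groups only, an effective-length offset, leaving out each library, and leaving out titles 37, 39 and 40 or giving them a term; library totals without TMM and leaving out both libraries with high smooth muscle genes were chosen after seeing the data. Chains named with values in every library passed the filter, had a mean of at least 5 CPM in a group and were called in a comparison; pathway genes named are the 3 of each list with the smallest p in WSD against CTRL, and genes called lower that were added after their values were seen. The members, classes, pathway lists and marker lists were chosen with earlier results of these data known. Strandedness of the quantification is not given in the sources used here, so reads of overlapping genes on opposite strands, such as Col4a1 and Col4a2 at their start, may not be told apart.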

Additional observations from a re-analysis of the deposited data

Results flagged for a closer look

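Each group of 4 or 5 libraries was searched for a highest or lowest library far from the rest, by Dixon's ratio, for the named chains, the chain ratios and the summed levels. Of 88 groups tested, 6 were picked out, and chance alone picks out about 1 in 20.

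In 3 of the 6 the level of a chain or a sum stood apart. Col27a1 in WSD+beta-Glucan 3 was 18.2 CPM, while the other 3 libraries of the group lay between 12.5 and 13.2. Col4a2 in CTRL 5 was 7.57 CPM, below the 11.4 to 12.9 of the other CTRL libraries. The summed level of all chains but Col18a1 in CTRL+beta-Glucan 5 was 127 CPM, below the 197 to 234 of the others.

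The other 3 concerned ratios of TPM. Col3a1 to Col1a1 in CTRL+beta-Glucan 1 was 1.18, and 2.85 to 3.46 in the rest of its group. Col6a3 to Col6a1 was 0.188 in CTRL 5, where the other controls lay between 0.592 and 0.728. The same ratio was 0.148 in CTRL+beta-Glucan 1, where the others lay between 0.684 and 1.08. In CPM the same libraries were also the lowest of their groups and lay nearer to the rest. Col3a1 to Col1a1 was then 1.16 beside 1.69 to 2.875. Col6a3 to Col6a1 was 0.427 beside 0.545 to 0.763 in CTRL and 0.337 beside 0.579 to 0.930 in CTRL+beta-Glucan.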

How the results depend on the processing

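No paired analysis was possible because the labels give no replicate number shared between groups; replicates were numbered within a group. Counts of chains called higher moved little when single libraries were left out: 15 to 17 in WSD against CTRL, 15 to 17 among libraries with beta-glucan, and 14 to 17 in WSD+beta-Glucan against CTRL. In WSD against CTRL the count was 18 with an effective-length offset, 21 with library totals and 13 with the compared groups only. Counts of chains called lower were small and less stable. In WSD against CTRL the count was 0 with library totals. In WSD+beta-Glucan against WSD it was 2 with DESeq2 and 1 with library totals. Among libraries with beta-glucan it was 1 with an effective-length offset, 1 without both libraries with high smooth muscle genes, 0 without titles 37, 39 and 40, 0 with library totals, and 1 to 2 leaving out single libraries. In WSD+beta-Glucan against CTRL it was 0 with no filter, with the compared groups only, with an effective-length offset, without titles 37, 39 and 40, without both smooth muscle libraries and with library totals, and 0 to 1 leaving out single libraries. With library totals Col18a1 changed sign in 3 comparisons: 0.11 in WSD against CTRL, -0.0073 in WSD+beta-Glucan against WSD and 0.0504 among libraries with beta-glucan. Col27a1 in WSD against CTRL was 0.15 without both smooth muscle libraries, 0.36 with library totals, and ran from -0.25 to 0.15 leaving out single libraries. The log2 ratio of Col4a1 to Col4a2 between CTRL+beta-Glucan and CTRL was -0.00322 with CPM in place of TPM. Leaving out single libraries, Col3a1 to Col1a1 ran from -0.462 to 0.0158 between these groups and Col6a3 to Col6a1 from -0.059 to 0.807. Col6a3 to Col6a1 ran from -0.351 to 0.0106 in WSD+beta-Glucan against WSD. The downstream share of Col18a1 ran from -1.5 to 6.04 percentage points there and from -4.00 to 3.54 among libraries with beta-glucan. None of these reversed values had passed a test, except Col18a1 in WSD against CTRL. The cause of these changes was not tested. Of the 16 chains without a test, Col9a3 passed the filter and was called higher in 3 comparisons without WSD+beta-Glucan 4, and in 1 of them without WSD+beta-Glucan 1.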

Other observations

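Among the 16 untested chains, Col9a3, Col22a1, Col4a3, Col24a1 and Col8a2 had 113, 103, 100, 91 and 88 reads over all 19 libraries, and the remaining 11 had at most 37.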
